A study of Homo sapiens with 6 samples.

Results

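The genes described here are 10 antioxidant genes, most of them known targets of the transcription factor NRF2: HMOX1, NQO1, GCLM, GCLC, TXN, TXNRD1, SRXN1, PRDX1, SOD1 and SOD2. They were taken by symbol from a fixed list, and all 10 were found among the 21662 gene symbols in the files and entered the tests over 11134 genes. The cells were GM12873, an Epstein-Barr virus-transformed human B-lymphoblastoid line, grown in RPMI-1640 medium with fetal bovine serum. There were 3 control samples, washed in PBS and placed directly in trizol, and 3 lyophilized samples, freeze-dried in 0.1 M trehalose in PBS and kept at room temperature for 2 weeks before extraction. All 6 samples came from this single untreated line, and no oxidant is named in the labels of either group. The labels pair each lyophilized sample with the control of the same number, and the number is called the culture below. Poly(A) RNA was sequenced, and the levels are the authors' FPKM (fragments per kilobase of transcript, scaled to the mapped reads of the sample).

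NRF2, encoded by NFE2L2, is held at low levels by KEAP1, an adaptor that hands it to a CUL3 ubiquitin ligase. When KEAP1 is oxidized, NRF2 accumulates, pairs with a small MAF protein and binds antioxidant response elements in the promoters of genes for glutathione synthesis, thioredoxin recycling and quinone reduction, while BACH1 competes for the same elements. The superoxide dismutases act one step earlier, turning superoxide into hydrogen peroxide, and SOD2 is best known as an NF-kB target. The study asked how well RNA is kept in dried cells. The comparison of lyophilized with control samples is one of relative levels, as FPKM are scaled within each sample. It does not show how much RNA of a gene was recovered, and the causes of differences were not tested.

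The RNA looked like that of B cells in every sample. All 10 B-cell and lymphoblastoid markers were above 1 FPKM in all 6 samples and summed to between 3320 and 4900 FPKM. T-cell markers summed to at most 7.1, monocyte markers to at most 8.04, NK-cell markers to at most 8.83 and red-cell markers to at most 0.441 FPKM, with CD3G, KLRD1 and HBB at 0. The files give no read counts. Relative depth, read from the step between low values, was 1.89, 1.34 and 0.927 times that of the control in lyophilized samples 1, 2 and 3, so the depth difference changed direction between pairs. No interval for counting error could be given.

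The core of the antioxidant response element was looked for in the promoters because most of these genes are described as NRF2 targets. It was written as TGACNNNGC and searched on both strands from 250 bases before to 50 bases after the start site in RefSeq promoters of GRCh38.p14. The FPKM records themselves lie on hg19. Of the 7 genes with a promoter entry (NQO1, GCLM, GCLC, TXN, TXNRD1, SRXN1 and SOD2), 2 held the core, GCLM and TXNRD1, against 13.6% of all 27305 promoters and 15.5% of the 7957 promoters of tested genes. Each match is shown 5′ to 3′ with the core in capitals. The GCLM core lay 34 to 26 bases before the start site on the strand opposite the gene, at chr1:93909448-93909472 on the plus strand. The first TXNRD1 core lay 99 to 91 bases before the start on the strand of the gene, at chr12:104215672-104215696 on the plus strand, and the second ended at the start site on the other strand, at chr12:104215763-104215787 on the minus strand. These windows show letters only, and no match in the other 5 says no more than that the core was not in the window. Whether each window stands at the start site of its FPKM record was not tested. The longest coding transcript of SOD2 reaches beyond its record, so the SOD2 window may stand at another start site.
GCLM: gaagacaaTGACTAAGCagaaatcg
TXNRD1, first: acgggctaTGACTTCGCtgttgtca
TXNRD1, second: gtgggaacTGACGGAGCcgaaggac

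The levels of the 10 genes fell into 5 tiers whose ranges did not overlap. PRDX1, a peroxiredoxin that reduces hydrogen peroxide with electrons from thioredoxin, stood alone at a mean of 559 FPKM over the 6 samples. It was 2.15 times as high as TXN (thioredoxin) at 260 FPKM, and PRDX1 was above TXN in 6 of 6 samples. TXN and SOD1, the cytosolic copper-zinc superoxide dismutase, at 214 FPKM, overlapped in range. Together PRDX1, TXN and SOD1 carried between 91.0% and 92.5% of the summed FPKM of the 10 genes in every sample, and the 10 genes carried between 0.195% and 0.292% of all FPKM. In the controls PRDX1 stood at percentile 98.9, TXN at 97.8 and SOD1 at 97.4 of the tested genes.

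An 8.25-fold step separated SOD1 from the next tier, TXNRD1, the reductase that recharges thioredoxin with NADPH, at 25.9 FPKM and SOD2, the mitochondrial manganese superoxide dismutase, at 24.4 FPKM. These 2 overlapped in range, and TXNRD1 was the higher in 5 of 6 samples. NQO1, a quinone reductase, at 12.0 FPKM, HMOX1, the inducible enzyme that opens the heme ring, at 11.9 FPKM and SRXN1, the sulfiredoxin that rescues overoxidized peroxiredoxins, at 11.0 FPKM also overlapped each other and lay near the middle of the tested genes (percentiles 53.3, 54.3 and 51.8). A 3.69-fold step led to the lowest tier, the subunits of glutamate-cysteine ligase, which makes the first bond of glutathione. GCLM, the modifier subunit, averaged 2.97 FPKM and GCLC, the catalytic subunit, 2.26 FPKM. Their ranges overlapped, yet GCLM was above GCLC in 6 of 6 samples, at ratios between 1.02 and 1.51. GCLC was also the most spread of the 10, its highest sample being 1.91 times its lowest, while HMOX1 was the least spread at 1.13 times.

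**Figure D1:**
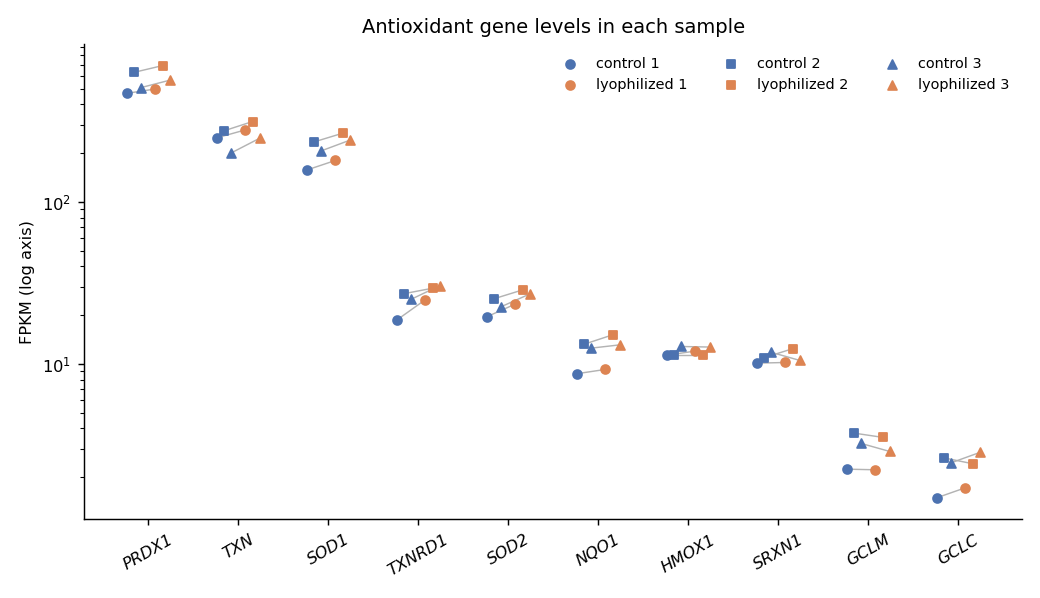
FPKM of the 10 antioxidant genes (log axis) in 3 control (blue) and 3 lyophilized (orange) samples, 1 marker shape per pair, with a grey line joining the pair. PRDX1, TXN and SOD1 lie above 150 FPKM in every sample and GCLM and GCLC below 4, and the lines between paired samples are short beside the distances between genes.

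The comparison of the groups was read in a limma fit on log2(FPKM + 0.1) with the condition as its only term and Benjamini-Hochberg adjustment over all genes tested. The fold changes below are on that scale. None of the 10 genes passed an adjusted p of 0.05, where 0.575% of all genes did (64 of 11134). At an unadjusted p under 0.05 it was again 0 of the 10, against 14.1% of all genes. The smallest unadjusted limma p among the 10, that of SOD2, was 0.124. In no gene did the 3 lyophilized values lie wholly above or below the 3 control values, which 9.66% and 12.6% of all genes did.

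The fit with the replicate number as a block, which compares each lyophilized sample with its own control, gave a different reading. There, 5 of the 10 genes were higher in the lyophilized samples (TXN, TXNRD1, PRDX1, SOD1 and SOD2) and 0 were lower, beside 15.9% of all genes called higher, 14.9% called lower and 30.7% called in either direction. The differences were small, the means of the called genes being 1.09 to 1.20 times those of the controls. By direction alone, 6 of the 10 were higher in all 3 pairs, against 33.4% of all genes, and 1, GCLM, was lower in all 3, against 28.8%, and these were the same genes under median centring and trimmed-mean scaling. The median fold change was 0.12 over the 10 genes and 0.039 over all genes. The block calls rested on the pairs unequally: without replicate 1, 2 of the 10 were called higher (TXN and SOD1, with 9.03% of all genes), without replicate 2, the same 5 (27.7%), and without replicate 3, 0 (4.26%).

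TXN, thioredoxin, keeps protein cysteines reduced and feeds electrons to the peroxiredoxins. Its record lies at chr9:113006092-113018920 on the minus strand (hg19). The controls 1 to 3 held 248, 274 and 200 FPKM and the lyophilized samples 278, 313 and 247. The groups overlapped, with control 3 lowest and lyophilized sample 2 highest, but each lyophilized sample was above its own control, by 1.12, 1.14 and 1.24 times. The fold change was 0.22 (SE 0.156, limma adjusted p = 0.532) without the block and the same size with it (SE 0.0455, 95% interval 0.12 to 0.32, limma adjusted p = 0.00764).

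TXNRD1 (chr12:104609559-104744062, plus strand), whose promoter holds the element core at both positions shown above, makes the reductase that returns thioredoxin to its active form. It measured 18.6, 27.1 and 25.0 FPKM in the control samples and 24.9, 29.3 and 30.4 FPKM in the lyophilized samples. Control 1 stood apart as the lowest, and lyophilized sample 1 was below controls 2 and 3, so the groups overlapped. The paired ratios were 1.34, 1.08 and 1.21, and the fold change of 0.27 was the largest of the 10 (limma adjusted p = 0.478 without the block and 0.021 with it, 95% interval with the block 0.11 to 0.43). The ratio of TXN to TXNRD1 levels ran from 7.99 to 13.3 in the control samples and from 8.14 to 11.2 in the lyophilized samples, so the balance of the enzyme and its substrate did not separate the groups.

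PRDX1 (chr1:45976707-45988562, minus strand) held 467, 629 and 507 FPKM in the control samples and 497, 693 and 563 FPKM in the lyophilized samples. Both groups were highest in culture 2 and lowest in culture 1, and they overlapped. The lyophilized samples were 1.07, 1.10 and 1.11 times their controls, the narrowest set of ratios apart from SOD1, and the fold change of 0.13 passed with the block (95% interval 0.04 to 0.21, limma adjusted p = 0.0353) and not without it (0.766).

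SRXN1 (chr20:627268-633890, minus strand), which restores PRDX1 after overoxidation, did not follow it. Its controls held 10.1, 10.9 and 11.8 FPKM and its lyophilized samples 10.2, 12.4 and 10.5 FPKM. The ratios went both ways, 1.01, 1.14 and 0.89, and the fold change was 0.0091 (95% interval with the block -0.19 to 0.20, limma adjusted p = 0.945). PRDX1 stood between 43.0 and 57.7 times the SRXN1 level in the 6 samples.

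SOD1 (chr21:33031935-33041243, plus strand) had the most even paired ratios of the 10. The controls held 157, 234 and 206 FPKM and the lyophilized samples 180, 265 and 240 FPKM, and culture 1 was the lowest in each group. The groups overlapped, yet each lyophilized sample was above its control by almost the same step, 1.15, 1.13 and 1.16 times. The fold change was 0.20 (limma adjusted p = 0.662 without the block and 0.00828 with it, 95% interval 0.11 to 0.29).

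SOD2 (chr6:160100149-160114353, minus strand), the mitochondrial counterpart, had a fold change of like size. Its controls held 19.5, 25.2 and 22.5 FPKM and its lyophilized samples 23.4, 28.6 and 27.0 FPKM, overlapping, with paired ratios of 1.19, 1.14 and 1.20. The fold change was 0.24 (limma adjusted p = 0.463 without the block and 0.0196 with it, 95% interval 0.098 to 0.37). The ratio of SOD1 to SOD2 was 8.01, 9.30 and 9.16 in the control samples and 7.72, 9.26 and 8.87 in the lyophilized samples, lower in the lyophilized sample of 3 of 3 pairs by less than the spread between cultures.

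The 2 ligase subunits were low and showed no call with the block. GSS, another gene of glutathione synthesis, was not low: GCLC stood at 0.0415 to 0.0805 times its level in the 6 samples. GCLM (chr1:94352590-94375012, minus strand) held 2.24, 3.74 and 3.23 FPKM in the control samples and 2.22, 3.52 and 2.88 FPKM in the lyophilized samples. The groups overlapped almost wholly, although each lyophilized sample was below its control, at 0.989, 0.942 and 0.892 times. The fold change was -0.086 (95% interval with the block -0.35 to 0.17, limma adjusted p = 0.587). GCLC (chr6:53362140-53409927, minus strand) held 1.49, 2.63 and 2.45 FPKM in the control samples and 1.72, 2.42 and 2.84 FPKM in the lyophilized samples. It was higher in 2 of 3 pairs and its fold change was 0.095 (95% interval with the block -0.21 to 0.40, limma adjusted p = 0.611). At these levels the added 0.1 weighs more and the intervals were the widest of the 10.

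NQO1 and HMOX1, both common readouts of NRF2, were not called in either fit. NQO1 (chr16:69743304-69760533, minus strand) held 8.69, 13.2 and 12.5 FPKM in the control samples and 9.24, 15.1 and 13.1 FPKM in the lyophilized samples. It was higher in 3 of 3 pairs, with a fold change of 0.11 (95% interval with the block -0.054 to 0.28, limma adjusted p = 0.261). The 2 samples of culture 1 stood below the other 4. HMOX1 (chr22:35777060-35790207, plus strand), which BACH1 represses in resting cells, held 11.3, 11.4 and 12.8 FPKM in the control samples and 12.0, 11.4 and 12.7 FPKM in the lyophilized samples. Its values were nearly level across all samples, with a fold change of 0.027 (95% interval with the block -0.14 to 0.19, limma adjusted p = 0.802).

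**Figure D2:**
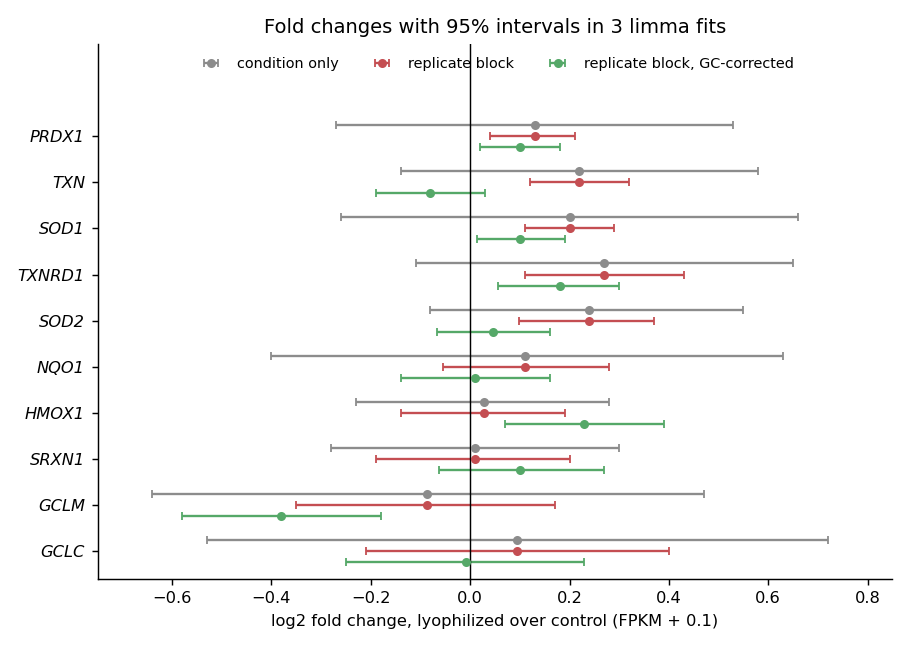
Log2 fold change of lyophilized over control on the log2(FPKM + 0.1) scale with its 95% interval for each gene in 3 limma fits: condition only (grey), replicate block (red) and replicate block after GC correction (green). All grey intervals cross 0, the red intervals of PRDX1, TXN, SOD1, TXNRD1 and SOD2 lie above it, and the green interval of GCLM lies below it. The intervals are not adjusted for the number of genes, so the green intervals of PRDX1, SOD1, TXNRD1 and HMOX1 lie above 0 although their adjusted p exceeded 0.05.

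Transcript GC content moved with the fold changes over the whole transcriptome, so it is given beside these calls. Each gene was given its longest coding transcript in GENCODE, as 9449 of 9688 genes had one, or otherwise its longest noncoding one, and over these genes the fold change fell with GC content (Spearman rho -0.777, and -0.75, -0.436 and -0.783 in pairs 1, 2 and 3). This is a description across genes, which share the libraries and are not replicates. The called genes all sat below the median GC content of 48.1%: TXN at 36.8%, SOD2 at 41.5%, SOD1 at 44.2%, TXNRD1 at 44.6% and PRDX1 at 47.5%. HMOX1 at 57.7% and SRXN1 at 51.7% were above it, and GCLM, at 37.3% the second lowest in GC content, was the 1 gene of the 10 with a negative fold change.

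After a loess curve over GC content had been subtracted in each sample, the block fit called 1 of the 10 genes, beside 16.9% of all genes. None of the 5 calls above remained: the fold change of TXN became -0.08 (limma adjusted p = 0.297), SOD2 0.046 (0.579), SOD1 0.10 (0.107), PRDX1 0.10 (0.0892) and TXNRD1 0.18 (0.0542). GCLM became the single call, at -0.38 (95% interval -0.58 to -0.18, limma adjusted p = 0.0194), and HMOX1 was at 0.23 without passing (0.0557). The call depended on the transcript chosen to stand for the gene. With the longest transcript inside each record's locus, an alternative chosen after seeing the data, 17.8% of all genes were called and again 1 of the 10, but it was PRDX1 (0.19, limma adjusted p = 0.00917), and GCLM was at -0.25 (0.0879). SOD2 was at 0.14 there (limma adjusted p = 0.0685), TXNRD1 at 0.16 (0.0702), SOD1 at 0.079 (0.196) and TXN at -0.079 (0.297). The GCLM transcript has 37.3% GC in the first case and 42.9% in the second, that of PRDX1 47.5% and 51.4%, and that of SOD2 41.5% and 45.2%.

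**Figure D3:**
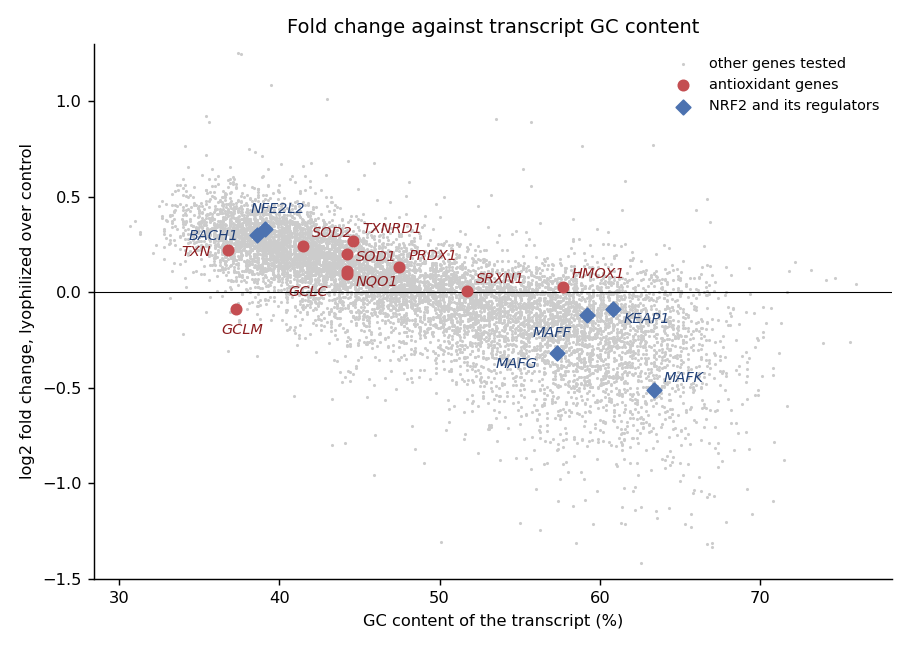
Log2 fold change of lyophilized over control (condition-only fit) against the GC content of the longest coding transcript, or of the longest transcript where none is coding, for the tested genes with one (grey), the 10 antioxidant genes (red) and NRF2 with its regulators (blue diamonds). The cloud falls from left to right, TXN, SOD2, SOD1, TXNRD1 and PRDX1 lie within it at or below 47.5% GC, and GCLM lies under it at 37.3% GC. A few genes beyond the vertical axis are not drawn.

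More of the 10 genes differed between the 3 cultures than between the 2 conditions. In a limma F test over the culture number, with condition in the fit, 8 of the 10 genes passed, against 45.2% of all genes. The exceptions were HMOX1 (limma adjusted p = 0.316) and SRXN1 (0.296), the same 2 genes with the narrowest range of levels. Culture 1 was the lowest of the 3 in both groups for 8 of the 10 genes, against 42.9% of all genes, and the highest in both groups for 0, against 21.5%. HMOX1 and TXN were the exceptions here. The control and the lyophilized sample of a culture are paired by the labels and are not independent samples.

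NQO1 went from a mean of 8.97 FPKM in culture 1 to 14.1 in culture 2 and 12.8 in culture 3 (log2 differences from culture 1 of 0.65 and 0.51, limma adjusted p = 0.000977). The glutamate-cysteine ligase subunits went with it. GCLM was higher by 0.68 and 0.44 in cultures 2 and 3 (limma adjusted p = 0.00981) and GCLC by 0.63 and 0.69 (0.0129). SOD1 averaged 168, 250 and 223 FPKM in cultures 1, 2 and 3 (log2 differences 0.57 and 0.40, limma adjusted p = 0.000115, the smallest of the 10).

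PRDX1 was higher by 0.45 in culture 2 and 0.15 in culture 3 (limma adjusted p = 0.000244), TXNRD1 by 0.39 and 0.36 (0.00916) and SOD2 by 0.33 and 0.20 (0.0154). TXN had an order of its own, 3 lowest, then 1, then 2, in both groups, with log2 differences of 0.15 and -0.24 from culture 1 (limma adjusted p = 0.00117). PRDX1 stood at 1.88 and 1.79 times TXN in the 2 samples of culture 1, at 2.30 and 2.21 times in culture 2 and at 2.54 and 2.27 times in culture 3. NQO1 stood at 0.766 and 0.767 times HMOX1 in culture 1, at 1.16 and 1.32 times in culture 2 and at 0.982 and 1.03 times in culture 3.

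The make-up of the libraries also differed by culture. The 100 most abundant genes took 41.4% and 41.7% of the FPKM in the samples of culture 1 and between 34.6% and 36.4% in the other 4. When each sample was centred on its median instead, 6 of the 10 genes passed between cultures, with 43.6% of all genes. TXNRD1 (limma adjusted p = 0.0526) and SOD2 (0.154) were lost. After the GC correction 7 passed, with 56.0% of all genes, and SOD2 was lost (0.0705). With median centring culture 1 was lowest in both groups for 6 of the 10 genes, against 27.2% of all genes. With trimmed-mean scaling it was lowest for 7, against 31.1%. The part of the library make-up in the difference between cultures was not tested.

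**Figure D4:**
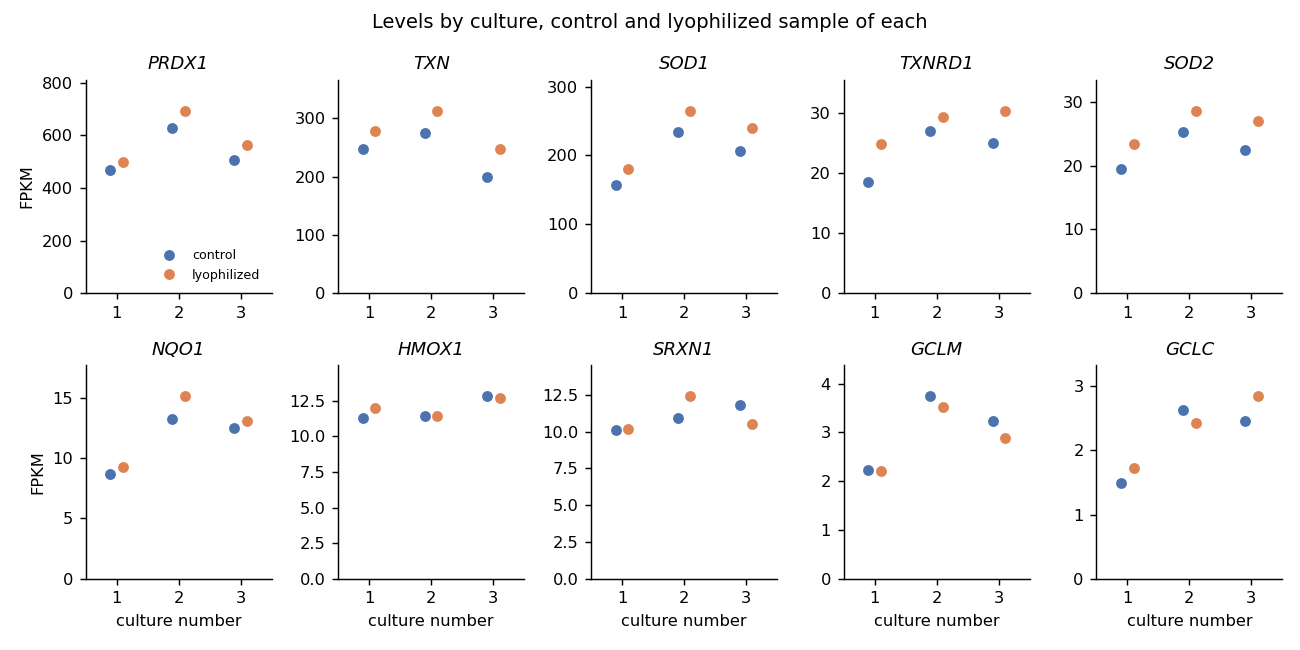
FPKM of each antioxidant gene by culture number (linear axes from 0), with the control (blue) and lyophilized (orange) sample of each culture side by side. For 8 genes both samples of culture 1 are the lowest of their group, while HMOX1 is nearly flat and TXN is lowest in culture 3.

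Upstream of these genes, NFE2L2, which encodes NRF2 itself, held 13.2, 15.0 and 14.3 FPKM in the control samples and 18.1, 17.3 and 17.8 FPKM in the lyophilized samples, so that the groups did not overlap. It rose with the block by 0.33 (limma adjusted p = 0.0116; without the block 0.228), and after the GC correction its fold change was 0.072 (0.372). KEAP1, its inhibitor, held 19.4, 21.5 and 20.7 FPKM in the control samples and 18.0, 21.4 and 18.7 FPKM in the lyophilized samples (fold change with the block -0.087, limma adjusted p = 0.33; 0.17 after the GC correction, 0.0491). With the transcript inside the locus KEAP1 was also at 0.17 but did not pass (0.0558). The ratio of NFE2L2 to KEAP1 was 0.681, 0.697 and 0.690 in the control samples and 1.00, 0.809 and 0.956 in the lyophilized samples. The transcripts differ in GC content, at 39.1% for NFE2L2 and 60.8% for KEAP1. The level of an mRNA says nothing of the NRF2 protein, which is set mainly by its turnover.

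Among the factors that share or compete for the element, MAFK held 8.83, 8.18 and 8.84 FPKM in the control samples and 5.70, 5.75 and 6.70 FPKM in the lyophilized samples, without overlap. It fell with the block by 0.51 (limma adjusted p = 0.00419), as MAFG did by 0.32 (0.0184), with 63.4% and 57.3% GC in their transcripts, and after the GC correction they were at -0.21 (0.102) and -0.12 (0.291). MAFF varied with the culture instead, from 8.50 and 6.86 FPKM in culture 1 to 3.18 and 3.32 FPKM in culture 2 (limma adjusted p between cultures = 0.000297), and culture 1 was its highest where it was the lowest for most of the 10 genes. BACH1, the competing repressor, held 4.27 to 4.84 FPKM in the control samples and 4.53 to 7.02 FPKM in the lyophilized samples. Its fold change was 0.30 (limma adjusted p with the block 0.0674), and 0.034 after the GC correction (0.804).

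The wider antioxidant network was read in 7 lists of 126 genes, of which 125 were in the files and 102 were tested. Without the block 0 of the 102 were called, and with it 24 were, 17 higher and 7 lower, a share of 23.5% that is below the 30.7% of all genes. The regulators had 2 higher and 3 lower of 15, glutathione synthesis and use 5 and 1 of 26, thioredoxins, peroxiredoxins and methionine sulfoxide repair 3 and 1 of 16, and other genes of superoxide and peroxide removal 3 and 1 of 11. NADPH supply had 2 higher of 13, heme and iron handling 1 higher of 8, and other reported NRF2 targets 1 higher and 1 lower of 13. Their median fold change was 0.072, against 0.039 for all genes.

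The largest change in these lists was that of ABCC1, an exporter of glutathione conjugates. It held 18.2, 15.2 and 16.9 FPKM in the control samples and 11.5, 10.1 and 11.0 FPKM in the lyophilized samples, and it fell by 0.61 with the block (limma adjusted p = 0.00072; without the block 0.0812) and by 0.46 after the GC correction (0.00182). After that correction it was 1 of 2 list genes called lower, the other being MGST1, a microsomal glutathione transferase (-0.17, limma adjusted p = 0.0182). MGST1 and TXNL1, a thioredoxin-like gene, were named after their values were seen. With the transcript inside the locus MGST1 was at -0.10 (limma adjusted p = 0.171) and ABCC1 at -0.47 (0.00176). The other gene called lower there was TXNL1 (-0.22, 0.0188). OXR1, an oxidation resistance gene, rose by 0.39 with the block (limma adjusted p = 0.0135), SESN1, a sestrin, by 0.37 (0.0358), TFRC, the transferrin receptor, by 0.32 (0.0119) and NAMPT, an enzyme of NAD synthesis, by 0.29 (0.0234). SESN2 fell by 0.29 (0.0147) and UCP2, a mitochondrial carrier, by 0.28 (0.00297). None of these 6 passed after the GC correction.

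**Figure D5:**
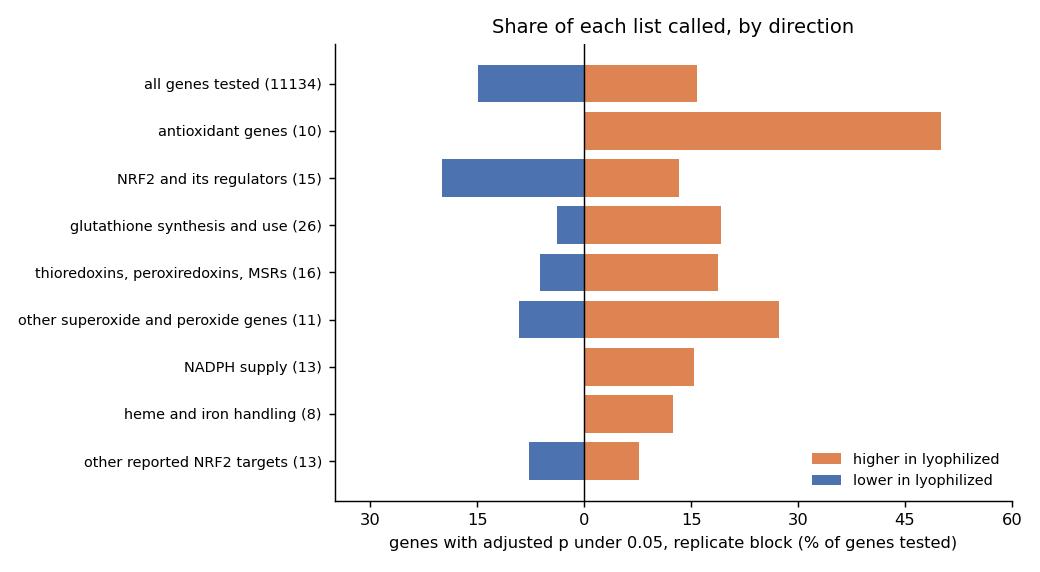
Percent of the tested genes of each list (number tested in brackets) with a limma adjusted p under 0.05 in the fit with the replicate block, higher in lyophilized to the right (orange) and lower to the left (blue). All genes stand at 15.9% higher and 14.9% lower, and of the 10 antioxidant genes 5 are higher and 0 lower.

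After the GC correction the lists had 29 calls of 102, 28.4%, where all genes had 16.9%, so that the order of the shares was the other way round from the fit without the correction. Of the 29, 27 were higher, beside 10.1% of all genes called higher, and the median was 0.083 where all genes had 0.022. With the transcript inside the locus 26 of 102 were called, 25.5%, where all genes had 17.8%. Of the 26, 24 were higher, beside 979 of 9486 over all genes. The list genes called higher after correction included several of the most abundant antioxidant mRNAs, whose uncorrected values were almost level. GPX1, a glutathione peroxidase, averaged 380 FPKM in the control samples and 412 in the lyophilized samples and was at 0.43 after correction (limma adjusted p = 0.000613). GSTP1, a glutathione transferase, averaged 523 and 548 FPKM (0.32, 0.00131), CYBA, a subunit of the NADPH oxidase, 274 and 287 FPKM (0.34, 0.00178), and FTL, the ferritin light chain, 1480 and 1540 FPKM (0.22, 0.00396). With 56.0% to 64.1% GC in their transcripts, these 4 are richer in GC than at least 9 of the 10 antioxidant genes. FTH1, the ferritin heavy chain, averaged 781 and 749 FPKM. PARK7, a redox-sensitive chaperone, averaged 325 and 359 FPKM (with the block 0.14, limma adjusted p = 0.0341). After the correction neither passed, with FTH1 at -0.022 (limma adjusted p = 0.726) and PARK7 at 0.083 (0.2). With the transcript inside the locus PARK7 passed at 0.17 (limma adjusted p = 0.0137) and FTH1 did not (-0.041, 0.473). PRDX1, at 534 ± 84.3 FPKM in the control samples and 584 ± 99.5 in the lyophilized samples (SD, n = 3), was of the same order as GSTP1, and the ligase subunits, at 3.07 ± 0.761 and 2.19 ± 0.617 FPKM in the controls for GCLM and GCLC, were the lowest step of the pathway shown here.

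Some of these values may mix reads of more than 1 gene, or lack reads of the gene itself. Annotated pseudogenes carry the names of TXN (7), SOD1 (3), PRDX1 (1) and SOD2 (1). The authors kept only reads with a single genomic position, so reads matching a gene and its pseudogene alike would be left out. How far this lowers the levels of these genes was not tested. The libraries do not mark strand, so reads of PRDX1 cannot be told apart from those of MMACHC where these genes overlap by 2348 bases, nor reads of GCLC from its antisense RNA GCLC-AS1 over 4552 bases. On the strand of SRXN1, an annotated protein-coding gene without a symbol spans 6621 bases of its record, which is nearly all of it. The TXNRD1 record overlaps the gene EID3 (1467 bases) and the pseudogene RPL18AP3 (528 bases) on its own strand. On the opposite strand it overlaps a long noncoding RNA without a symbol over 18409 bases. The SOD1 record overlaps the small nucleolar RNA gene SNORA81 (177 bases) on its own strand. Opposite-strand long noncoding RNAs without a symbol overlap SOD1 over 520 bases and NQO1 over 710 bases.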

How the data were processed

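The authors aligned 75-base single-end TruSeq v2 poly(A) reads to hg19 (GRCh37) with TopHat 2.0.7, keeping reads with 1 genomic position, and deposited Cufflinks FPKM values, 1 table per sample. The Cufflinks version and the gene annotation were not given in the sources used here. Of 24934 records, the one with the highest mean was kept per symbol, and small RNAs were removed by symbol. Genes with a mean FPKM above 1 in a group were tested on log2(FPKM + 0.1) with limma 3.58.1 in R 4.3.3 (variance trend, Benjamini-Hochberg, adjusted p 0.05), with the condition only, as the study's own test had no pairing. FPKM are not counts, so no count test was used. The smallest group has 3 samples, and nothing in the labels says whether the numbers stand for separate cultures. Without the block, p-values measure the spread between these samples. With the block they measure the spread of the differences within pairs. The test between cultures sets the cultures against that same spread, left after condition and culture.

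The labels pair the samples. Deviations from the group means correlated at 0.716, 0.603 and 0.476 within pairs and at -0.621 to 0.202 between samples of different numbers, so the fit with the replicate number as a block stands beside each result. GC correction subtracted a loess curve (span 0.3, degree 2) over the GC content of the longest coding transcript in GENCODE, or of the longest transcript for the 239 of 9688 genes without a coding one. Relative depth came from 1912 records under 0.5 FPKM. The fits were tested on simulated data. Named genes were the 10 members, NFE2L2, KEAP1, BACH1 and the small MAF genes, list genes past the threshold without the block, up to 10 list genes with the largest change with the block in the same direction in all 3 pairs, and the 6 list genes with the highest control mean. MGST1 and TXNL1, each called lower in a GC-corrected fit, and GSS, set beside GCLC, were list genes named outside these rules. The members and lists were chosen with earlier results of these data known. Alternatives covered the pseudocount, the filter, the scaling, the trend, the block, GC content and each replicate left out. Tables were handled in Python 3.11.15 with pandas 2.3.3, and plots drawn with matplotlib 3.10.9.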

Additional observations from a re-analysis of the deposited data

How the results depend on the processing

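Of the 10 genes, 0 were called without the block under every other scaling, filter, pseudocount and left-out replicate tried. With the replicate block 5 were called, with the block and GC correction 1, and with the transcript inside the locus 1. Over all genes the 64 calls of 11134 became 3423 of 11134 (30.7%), 1639 of 9688 (16.9%) and 1691 of 9486 (17.8%) under these fits. They became 0 of 9688 with GC correction and no replicate block, 0 of 18203 with no filter on low values and 97 of 11134 with trimmed-mean scaling. With any 1 replicate left out and no block they became 0. With the block and a replicate left out, there were 1257 to 5355 calls over all genes, with 11119 to 11185 tested (2205 of 11119 without replicate 1). Among the 10 genes there were 0 to 5 (2 without replicate 1), and among the lists 5 to 42 (13 of 100 without replicate 1). The lists had 24 calls of 102 with the replicate block, 29 of 102 after GC correction and 26 of 102 with the transcript inside the locus. Between cultures, no filter on low values left 2533 calls of the 18203 genes then tested and 5 of the 10. The causes were not tested.

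Signs turned for 7 of the 10 genes, none of them while called. TXN became -0.08 with GC correction, with the block or without, and -0.079 with the transcript inside the locus. GCLC became -0.0081 with GC correction, with the block or without, and -0.029 with the transcript inside the locus. NQO1 became -0.01 in that last fit, and SRXN1 -0.0086 with trimmed-mean scaling. With 1 replicate left out, HMOX1 ran from -0.0099 to 0.083, NQO1 from -0.072 to 0.31, GCLM from -0.29 to 0.082, GCLC from -0.15 to 0.29, SRXN1 from -0.078 to 0.064 and PRDX1 from -0.0028 to 0.25. With the block and a replicate left out, HMOX1 ran from -0.0035 to 0.046 and SRXN1 from -0.078 to 0.097. Over all alternatives the limma adjusted p of the 5 genes called with the block ran from 0.00116 to 1.0 for TXN, 0.000839 to 0.996 for TXNRD1, 0.00917 to 1.0 for PRDX1, 0.00146 to 1.0 for SOD1 and 0.00425 to 1.0 for SOD2. GCLM and GCLC lie under the stricter filter of 5 FPKM and have no value there. The deposited tables hold no counts, so counting error could not be given for any gene.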
